A study of Mus musculus with 10 samples.

Results

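Genomic imprinting makes a gene active mainly on 1 of its parental copies. The copies differ by DNA methylation, set in the egg or the sperm, over a control region that often serves a cluster of genes. ZFP57, a zinc finger protein that binds the methylated hexamer TGCCGC, and its partner TRIM28 keep that methylation in place as cells divide. Many imprinted genes act in growth, and several are known for roles in the brain and in feeding.

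The levels of 10 imprinted genes were examined in the mouse neuroblastoma line Neuro-2a after knockdown of Sfpq, a nuclear protein that binds RNA and DNA. The genes were Nnat, Ndn, Snrpn, Peg3, Dlk1, Peg10, Plagl1 and Igf2, which are expressed from the paternal copy, and the maternally expressed long noncoding RNAs Meg3 and H19. They were found by symbol among the RefSeq transcript rows of the data, and the row with the highest mean over the 8 libraries stood for a gene, out of 23553 genes in all. A row was matched for 9 of the 10. No row was matched for H19, and no value is given for it.

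All cells were kept in medium with 2% serum, a condition the submitters call differentiated. Control cells (Luc) received a small interfering RNA (siRNA) against luciferase, a gene that mouse cells lack, and knockdown cells (Sfpq) received one against mouse Sfpq. The submitters made 3 Luc and 3 Sfpq libraries from poly(A) RNA, and 1 of each kind from total RNA after removal of ribosomal RNA (rRNA). The line's strain label joins C57BL/6, C57BL/6J and CBA, and all libraries come from this 1 tumour line. RNA polymerase II chromatin immunoprecipitation, listed with 2 samples, is not analysed here. RPKM, a read density per kilobase relative to library size, sums over both parental copies, so it does not tell which copy was read. In bulk RNA, fewer expressing cells and less RNA per cell cannot be told apart.

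The Sfpq row, the higher of 2, is that of a noncoding RefSeq transcript. It stood at 56.8, 60.8 and 73.0 RPKM in the poly(A) Luc libraries. In the Sfpq libraries it stood at 3.98, 4.75 and 6.47 RPKM, a mean of 7.97% of the Luc mean. In rRNA-depleted RNA it was 30.8 RPKM in Luc and 4.43 RPKM in Sfpq cells. How many reads each library held is unknown, but steps among the lowest values placed the poly(A) libraries at 0.628 (Sfpq replicate 1) to 1.28 (Luc replicate 3) times the depth of Luc replicate 1, and both rRNA-depleted libraries at about 2.64 to 2.65 times. Luc replicate 3 stood somewhat apart: its log2 values correlated with the other Luc libraries across genes at Pearson r of 0.985 and 0.979, whereas the other Luc pair gave 0.996 and the Sfpq pairs 0.994 to 0.997. The summed level of 16 sympathetic neuroblast markers was 1122 to 1300 RPKM in Luc and 985 to 1051 RPKM in Sfpq libraries, with Nefl and Nefm at or near 0 RPKM. Hand2, a transcription factor of the sympathetic lineage, stood at 93.3 to 109.9 RPKM in Luc libraries. Of the 14 tested markers, 8 fell in Sfpq cells, among them Hand2 (log2 fold change -0.72) and Elavl4 (-1.90), and Chga (0.75), Dbh (0.54) and Gata3 (0.51) rose, by limma at an adjusted p under 0.05. That is 78.6% called and 57.1% lower, where 40.0% of all 11727 tested genes were called and 18.6% were lower. Summed fibroblast markers were 1.84 to 1.87 RPKM in Luc and 2.75 to 3.32 RPKM in Sfpq libraries, with Fap at 0 RPKM and Col1a1, Col1a2 and Col3a1 at 0.196 RPKM or less in every poly(A) library. Of the 2 tested, Pdgfrb rose from a mean of 0.877 to 1.96 RPKM (log2 fold change 0.84, limma adjusted p = 0.000728). Pdgfra did not pass (0.36, limma adjusted p = 0.0555). Dcn, under the filter, went the other way, from a mean of 0.523 to 0.279 RPKM. Endothelial markers summed to 1.64 to 2.01 RPKM in Luc and 0.949 to 1.48 RPKM in Sfpq libraries, and Pecam1, the only 1 of the 4 tested, fell (log2 fold change -0.69, limma adjusted p = 0.00242). Astrocyte and oligodendrocyte markers summed to 1.75 to 1.94 RPKM in Luc and 1.79 to 2.02 RPKM in Sfpq libraries, and leukocyte markers to at most 0.141 RPKM in Luc and 0.0512 RPKM in Sfpq libraries. In rRNA-depleted RNA the fibroblast sum was 2.43 RPKM in Luc and 3.20 RPKM in Sfpq cells. There Pdgfrb (1.09 and 2.22 RPKM) and Pdgfra (0.248 and 0.534 RPKM) were higher in Sfpq cells. Col1a1 (0.390 and 0.163 RPKM), Col1a2 (0.408 and 0.127 RPKM) and Col3a1 (0.118 and 0.0364 RPKM) were lower. The part of these markers in the results below was not tested.

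The promoters of 6 of the genes are shown to set the genes with transcripts beside those at or near 0 in the data. Each runs from 250 bases before to 50 bases after a RefSeq start site, 5′ to 3′ on the gene's strand, from RefSeq on build GRCm38.p6. Capitals mark the ZFP57 hexamer TGCCGC on either strand (GCGGCA on the other), with no regard to methylation.
Peg3, chr7:6730370-6730669, minus strand: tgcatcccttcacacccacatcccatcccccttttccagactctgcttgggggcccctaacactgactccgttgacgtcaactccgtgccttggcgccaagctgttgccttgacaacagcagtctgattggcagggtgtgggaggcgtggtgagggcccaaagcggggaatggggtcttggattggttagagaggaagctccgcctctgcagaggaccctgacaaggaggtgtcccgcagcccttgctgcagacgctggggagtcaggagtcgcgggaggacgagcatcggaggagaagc
Dlk1, chr12:109452573-109452872, plus strand: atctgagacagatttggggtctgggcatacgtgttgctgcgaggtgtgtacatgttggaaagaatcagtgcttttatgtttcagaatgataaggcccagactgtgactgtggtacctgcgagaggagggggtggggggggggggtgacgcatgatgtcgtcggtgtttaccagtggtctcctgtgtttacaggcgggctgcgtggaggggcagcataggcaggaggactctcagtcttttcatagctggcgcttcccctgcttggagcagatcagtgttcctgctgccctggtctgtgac
Nnat, chr2:157559828-157560127, plus strand: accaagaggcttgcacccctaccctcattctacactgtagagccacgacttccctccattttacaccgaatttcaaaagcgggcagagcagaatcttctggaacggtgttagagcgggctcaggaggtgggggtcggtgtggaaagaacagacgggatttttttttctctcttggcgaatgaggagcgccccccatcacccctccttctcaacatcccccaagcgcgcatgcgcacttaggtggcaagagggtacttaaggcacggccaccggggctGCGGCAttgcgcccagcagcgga
Snrpn, chr7:60005150-60005449, minus strand, the only 1 of its 4 listed starts with the hexamer: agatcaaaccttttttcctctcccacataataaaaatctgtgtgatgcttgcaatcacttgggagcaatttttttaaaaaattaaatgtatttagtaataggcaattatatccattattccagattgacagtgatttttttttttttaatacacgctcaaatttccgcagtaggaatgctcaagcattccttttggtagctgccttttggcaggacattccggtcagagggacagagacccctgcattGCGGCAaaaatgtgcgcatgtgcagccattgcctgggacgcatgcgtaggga
Meg3, chr12:109540746-109541045, plus strand: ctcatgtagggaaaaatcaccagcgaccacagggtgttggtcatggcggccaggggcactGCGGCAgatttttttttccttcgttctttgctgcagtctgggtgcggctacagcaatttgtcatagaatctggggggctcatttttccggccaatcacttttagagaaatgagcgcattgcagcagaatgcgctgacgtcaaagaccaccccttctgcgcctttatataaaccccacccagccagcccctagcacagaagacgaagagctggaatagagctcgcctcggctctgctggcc
Plagl1, chr10:13090582-13090881, plus strand: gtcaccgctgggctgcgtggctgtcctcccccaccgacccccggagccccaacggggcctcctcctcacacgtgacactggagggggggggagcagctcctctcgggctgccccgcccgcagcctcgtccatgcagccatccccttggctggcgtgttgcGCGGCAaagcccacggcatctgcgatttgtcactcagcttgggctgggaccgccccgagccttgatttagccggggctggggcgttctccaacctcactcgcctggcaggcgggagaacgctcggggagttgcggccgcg
The hexamer was in 5 of the 15 listed promoters of these genes, 1 each for Nnat, Snrpn, Igf2, Plagl1 and Meg3, and in 11.6% of all 32851 promoters of that length. The number of CpG dinucleotides was 13 for Peg3, 9 for Dlk1, 17 for Nnat, 7 for this Snrpn start, 13 for this Meg3 start and 26 for Plagl1, against a median of 7 over all promoters. Among the genes shown, the hexamer occurred both in promoters of transcribed genes (Nnat and Snrpn) and in those of genes at or near 0 (Meg3 and Plagl1). These letters did not occur in the Peg3 and Dlk1 windows. Nor were they in the window of Ndn, a gene near 0 not shown here, or at the other listed Snrpn, Meg3 and Igf2 starts.

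Of the 9 genes with a row, 5 were clearly transcribed and 4 stood at or near 0. In poly(A) Luc RNA the order by RPKM, which is per kilobase, was Peg10, Snrpn, Peg3, Nnat and Dlk1, and the 3 libraries of each gene did not overlap with those of its neighbours in that order. After Sfpq knockdown, Peg10 and Peg3 rose and Dlk1 fell, whereas Snrpn and Nnat did not pass the test. Genes were tested with limma on log2(RPKM + 0.5) if their mean over the 6 poly(A) libraries was at least 0.5 RPKM, and a gene was called at an adjusted p under 0.05. Whether replicates were separate cultures is not stated in the labels, so the spread behind the p-values may be technical only.

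So 3 of the 5 tested genes were called, 2 higher and 1 lower. Over all 11727 tested genes, 40.0% were called, 21.3% higher and 18.6% lower, and with 5 genes a count of 3 is close to that background. The median log2 fold change was -0.07 over the 5 genes and 0.05 over all tested genes. The 3 Sfpq libraries did not overlap with the 3 Luc libraries for Peg10, Peg3 and Dlk1, as was so for 52.9% of all tested genes.

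**Figure D1:**
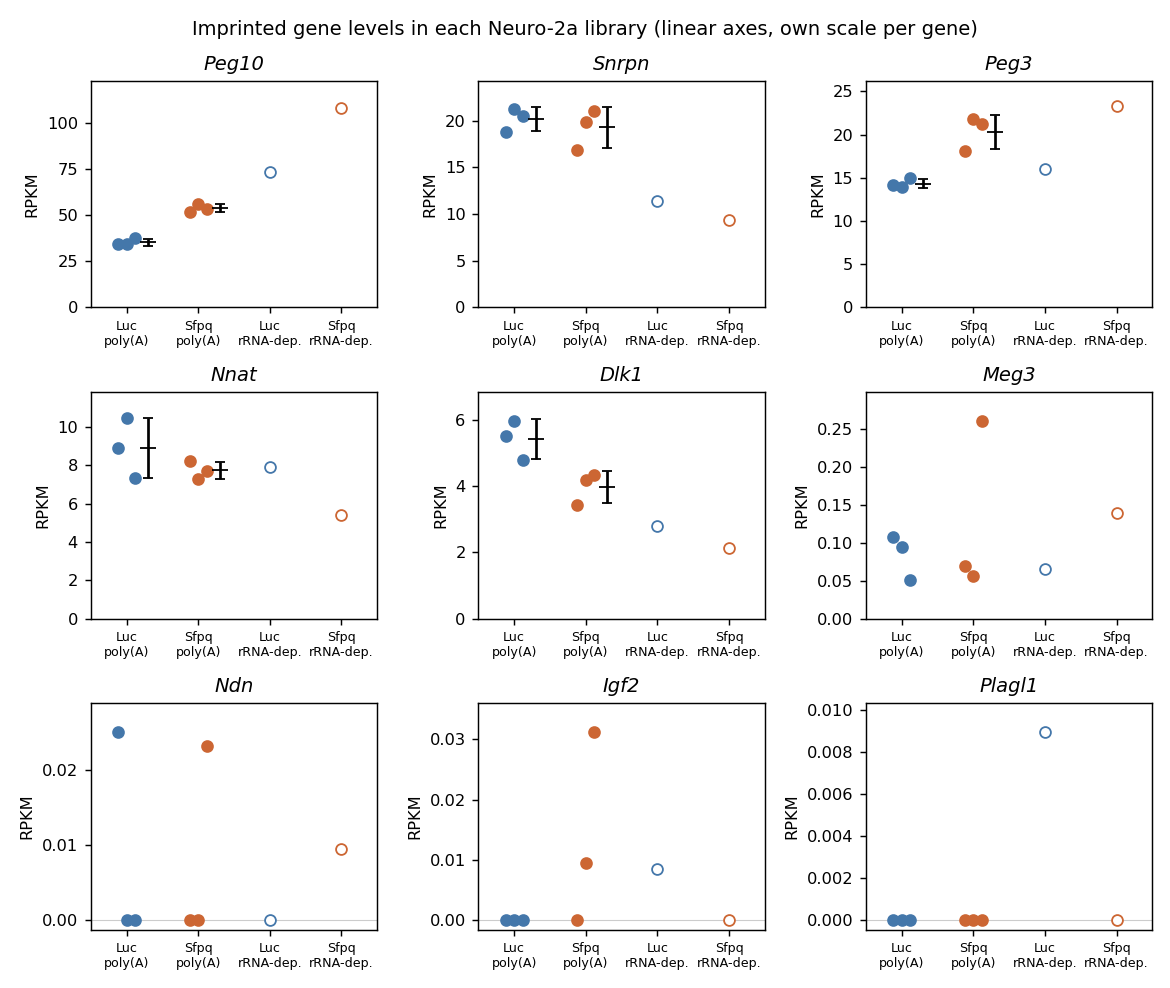
RPKM (y axis, linear, own scale for each gene) of the 9 imprinted genes with a row, in poly(A) libraries (filled points) and rRNA-depleted libraries (open points) of Luc (blue) and Sfpq (orange) cells; bars are mean and SD of 3 libraries, drawn for the 5 tested genes. Peg10 and Peg3 lie higher in all Sfpq libraries than in the Luc libraries of the same preparation, Dlk1 lies lower, and Meg3, Ndn, Igf2 and Plagl1 reach at most 0.261 RPKM.

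Peg10, a gene of retrotransposon origin that is known for its need in the placenta, was the most abundant of the 9. It stood at 34.2, 34.3 and 37.4 RPKM in Luc and at 51.7, 56.0 and 53.4 RPKM in Sfpq poly(A) libraries. Every Sfpq library lay above every Luc library, by far more than the spread within either group. The means were 35.3 ± 1.82 and 53.7 ± 2.14 RPKM (SD, n = 3), a 1.52-fold rise, with a log2 fold change of 0.60 (SE 0.09, 95% interval 0.39 to 0.81, limma adjusted p = 0.00107). In rRNA-depleted RNA, Peg10 was 73.5 RPKM in Luc and 107.8 RPKM in Sfpq cells, a 1.47-fold difference with no replicate check. Its pair of RefSeq rows, for 2 coding transcripts, holds identical values.

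Peg3 encodes a zinc finger protein and heads an imprinted cluster on the proximal end of chromosome 7. Its level was 14.2, 13.9 and 14.9 RPKM in Luc and 18.1, 21.8 and 21.2 RPKM in Sfpq poly(A) libraries. Again no Sfpq library reached down to the Luc range. The means were 14.3 ± 0.541 and 20.4 ± 1.98 RPKM (SD, n = 3), a 1.42-fold rise, with a log2 fold change of 0.49 (SE 0.11, 95% interval 0.24 to 0.73, limma adjusted p = 0.00631). The rRNA-depleted pair gave 16.0 RPKM in Luc and 23.3 RPKM in Sfpq cells, 1.46-fold. Peg10 and Peg3 kept their calls with each of the 6 libraries left out, and without Luc replicate 3 their log2 fold changes were 0.64 and 0.52.

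Dlk1, a transmembrane relative of the Notch ligands found in neuroendocrine cells and preadipocytes, stood at 5.50, 5.97 and 4.79 RPKM in Luc and at 3.42, 4.19 and 4.32 RPKM in Sfpq poly(A) libraries. The groups did not overlap, but the gap between Luc replicate 3 and Sfpq replicate 3 was smaller than the SD of either group. The means were 5.42 ± 0.596 and 3.97 ± 0.488 RPKM (SD, n = 3), a ratio of 0.734, with a log2 fold change of -0.40 (SE 0.13, 95% interval -0.70 to -0.11, limma adjusted p = 0.0346). This call ended when any 1 library other than Luc replicate 3 was left out: the log2 fold change was then -0.46 to -0.31 and the limma adjusted p 0.0598 to 0.109. Without Luc replicate 3 it was -0.48 (limma adjusted p = 0.00559). Testing every row without a low-value filter ended it too (adjusted p = 0.0663). In rRNA-depleted RNA, Dlk1 was 2.80 RPKM in Luc and 2.11 RPKM in Sfpq cells, a ratio of 0.756. The 5 Dlk1 rows, 4 coding and 1 noncoding, share reads, and their ratios of Sfpq to Luc ran from 0.698 to 0.734 in poly(A) and from 0.756 to 0.841 in rRNA-depleted RNA.

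Nnat encodes neuronatin, a small membrane protein of the endoplasmic reticulum of neurons and endocrine cells. Its level was 8.89, 10.5 and 7.33 RPKM in Luc and 8.20, 7.31 and 7.70 RPKM in Sfpq poly(A) libraries. The groups overlapped, and the Luc libraries spread more widely than the Sfpq ones. The log2 fold change was -0.18 (SE 0.14, 95% interval -0.49 to 0.13, limma adjusted p = 0.3245). Without Luc replicate 3, the lowest Luc library for this gene, the log2 fold change was -0.30 and passed the test (limma adjusted p = 0.0282). The rRNA-depleted pair gave 7.92 RPKM in Luc and 5.41 RPKM in Sfpq cells, a ratio of 0.682. The other Nnat row, also coding, had ratios of Sfpq to Luc of 0.892 in poly(A) and 0.674 in rRNA-depleted RNA.

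Snrpn encodes SmN, a neuronal form of a core protein of the spliceosome's small ribonucleoproteins, from a transcript that also codes for Snurf. It stood at 18.8, 21.3 and 20.5 RPKM in Luc and at 16.9, 19.9 and 21.1 RPKM in Sfpq poly(A) libraries. The groups overlapped, and the lowest library of all was Sfpq replicate 1. The log2 fold change was -0.07 (SE 0.11, 95% interval -0.33 to 0.19, limma adjusted p = 0.660), and without Sfpq replicate 1 it was 0.02. The rRNA-depleted libraries held 11.4 RPKM in Luc and 9.40 RPKM in Sfpq cells, a ratio of 0.825. Over the 3 Snrpn rows, all coding, the ratios of Sfpq to Luc ran from 0.953 to 0.9575 in poly(A) and from 0.814 to 0.825 in rRNA-depleted RNA. The Snurf row cannot be told apart from Snrpn, as its values differed from those of Snrpn by a constant share in every library.

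After knockdown the order of levels in poly(A) RNA changed in 1 place: the Peg3 libraries (18.1 to 21.8 RPKM) now overlapped with the Snrpn libraries (16.9 to 21.1 RPKM). In rRNA-depleted RNA, Peg3 stood above Snrpn in both cell groups. The direction from Luc to Sfpq was the same in both preparations for 5 of the 5 genes, as it was for 9713 of 11208 genes measured in both (86.7%). None of the 5 differed by an absolute log2 ratio of at least 1 between the rRNA-depleted libraries, where 6.83% of 11386 genes did.

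**Figure D2:**
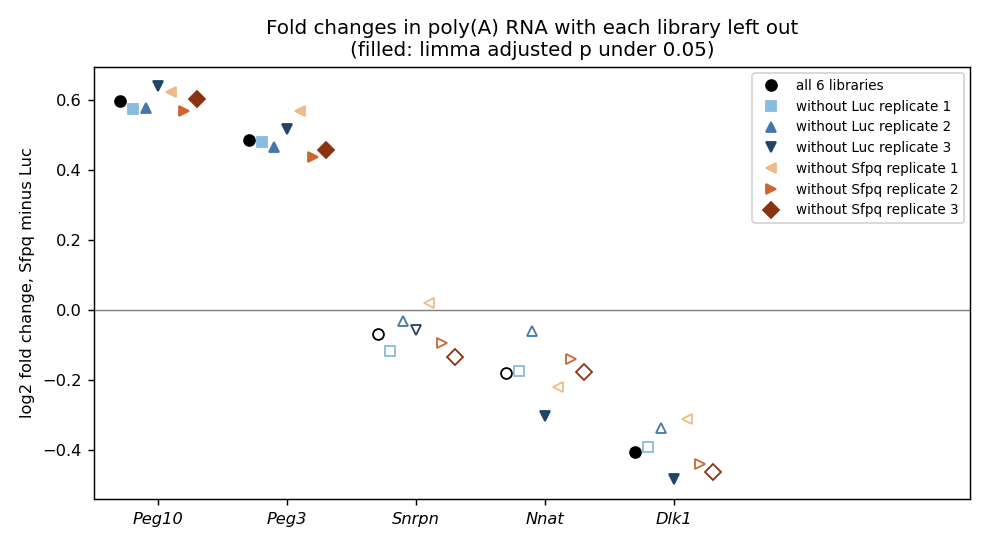
Log2 fold change from Luc to Sfpq in poly(A) RNA (y axis) of the 5 tested genes, with all 6 libraries (black) and with each library left out (coloured symbols); filled symbols have a limma adjusted p under 0.05. Peg10 stays between 0.57 and 0.64 and Peg3 between 0.44 and 0.57, of the fits with a library left out Dlk1 keeps its call only without Luc replicate 3, and Nnat passes only without Luc replicate 3.

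The other 4 genes with a row did not reach the filter. Meg3, the maternally expressed noncoding RNA next to Dlk1, was highest of these in its row NR_027652, with 0.108, 0.0948 and 0.0508 RPKM in Luc and 0.0687, 0.0555 and 0.261 RPKM in Sfpq poly(A) libraries. Multiplied by relative depth, these values were whole multiples of 1 step within 1%, of 5, 5 and 3 steps in Luc and 2, 3 and 13 steps in Sfpq libraries. Sfpq replicate 3 alone lay above the Luc libraries, and by RPKM the other Sfpq libraries lay within their range. The rRNA-depleted values were 0.0655 RPKM (8 steps) in Luc and 0.138 RPKM (17 steps) in Sfpq cells. The 3 Meg3 rows are all noncoding.

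Ndn encodes necdin, a MAGE family protein known to suppress growth in neurons. It was listed at 0.0250 RPKM in Luc replicate 1, at 0.0232 RPKM in Sfpq replicate 3 and at 0.00944 RPKM in the rRNA-depleted Sfpq library, in each case 1 step, and at 0 elsewhere. Igf2, the fetal growth factor, was listed at 0 in the 3 poly(A) Luc libraries and at 0, 0.00959 and 0.0312 RPKM in the Sfpq libraries (1 and 3 steps in the last 2). Its rRNA-depleted Luc value was 0.00849 RPKM (2 steps) and its Sfpq value 0. Plagl1, a zinc finger transcription factor, was listed at 0 in all 6 poly(A) libraries and the rRNA-depleted Sfpq library, and at 0.00893 RPKM (1 step) in the rRNA-depleted Luc library. When limma was run with no low-value filter, Meg3, Igf2 and Ndn were tested too and did not pass (limma adjusted p = 0.641, 0.387 and 0.981), which leaves 2 of 8 genes called, Peg10 and Peg3. Over all genes, that fit called 4760 of 17014, so 2 of 8 is close to its background. At so few steps only a large difference would have been detectable.

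The 2 preparations of Luc RNA ranked the 5 tested genes alike except for Peg3 and Snrpn. Peg10 was 2.08-fold higher in the rRNA-depleted library than in the poly(A) mean (log2 difference 1.05), the only 1 of the 5 at or past an absolute log2 difference of 1. Over 11611 genes, 20.6% were past that limit, 2.14% higher and 18.5% lower in rRNA-depleted RNA, and the median difference was -0.45. Peg3 differed by 0.15 on the log2 scale, Nnat by -0.16, Snrpn by -0.80 and Dlk1 by -0.84. When the libraries were scaled to a median ratio of 1, these log2 differences were 1.54 for Peg10, 0.64 for Peg3, 0.31 for Nnat, -0.32 for Snrpn and -0.41 for Dlk1, so the direction for Nnat depends on the scaling. It depends on the row too. Unscaled, the other Nnat row stood at 8.14, 8.35 and 6.83 RPKM in poly(A) Luc libraries and 8.40 RPKM in the rRNA-depleted one. With 1 rRNA-depleted Luc library there is no replicate check.

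**Figure D3:**
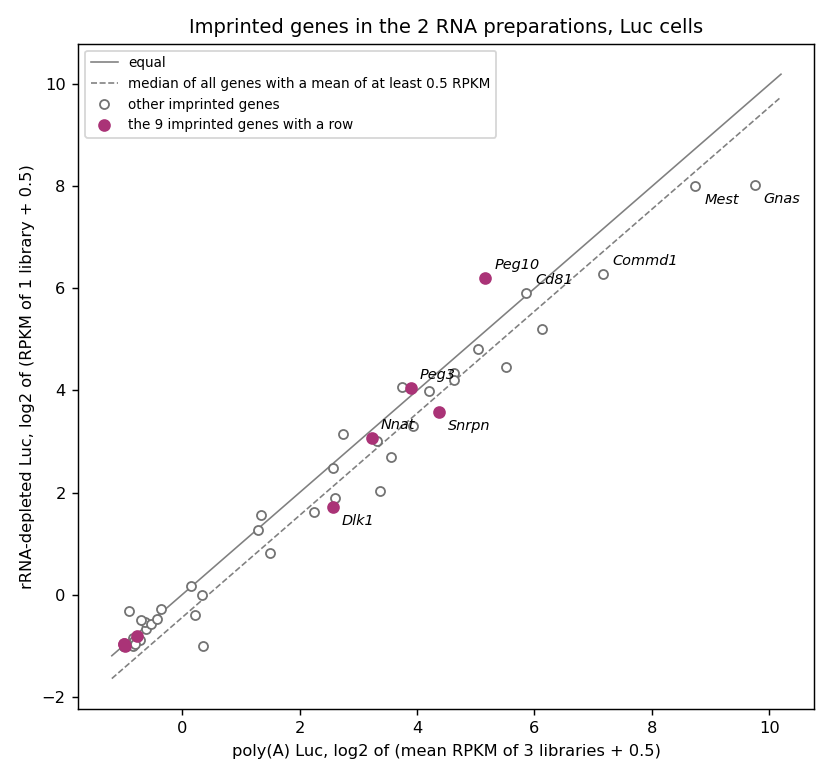
Levels in the rRNA-depleted Luc library (y axis) against the mean of 3 poly(A) Luc libraries (x axis), both as log2(RPKM + 0.5), for the imprinted genes named here (filled) and other imprinted genes (open); the solid line marks equal levels and the dashed line the median difference of all genes, -0.45. Peg10 lies 1.05 above the line of equal levels, while Snrpn and Dlk1 lie below the dashed line.

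The wider set of imprinted genes was read from a list of 51 others, of which 49 were matched and 25 tested. Of these 25, 5 rose, 8 fell and 12 did not pass (52.0% called, against 40.0% of all genes), and the median log2 fold change was -0.06. Snurf is counted in it although it repeats Snrpn. Without Luc replicate 2 the counts were 3 higher and 7 lower, without Luc replicate 3 they were 8 and 8, and without Sfpq replicate 3 they were 3 and 5. Over all 11727 tested genes, those fits called 4485, 6258 and 3313 in either direction. The direction was the same in both preparations for 21 of 24 genes measured in both (87.5%), close to the 86.7% of all genes.

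Among 11 tested genes listed as paternally expressed, 2 rose, 2 fell and 7 did not pass (36.4% called, against 40.0% of all genes). Zdbf2, a zinc finger gene tied to early growth, had 5.04, 4.55 and 7.10 RPKM in Luc and 8.82, 10.0 and 10.3 RPKM in Sfpq libraries (log2 fold change 0.77, SE 0.16, limma adjusted p = 0.00429). It was also the only 1 of the 24 other imprinted genes measured in both preparations that was at least 1 log2 unit higher in rRNA-depleted RNA (3.23 and 7.81 RPKM, log2 ratio 1.16). Of those 24, 3 were at least 1 log2 unit lower. Over 11386 genes, 188 were that much higher and 590 that much lower. Mest, a hydrolase-like gene expressed in mesoderm and the most abundant of the paternal list, fell from 406, 398 and 476 RPKM to 310, 329 and 302 RPKM. Its log2 fold change was -0.44 (limma adjusted p = 0.00944), and the call ended without Sfpq replicate 3 (-0.41, adjusted p = 0.0517). Nap1l5, a nucleosome assembly protein relative, fell by 0.76 on the log2 scale (limma adjusted p = 0.00649). The brain noncoding RNA Peg13 rose by 0.44 (limma adjusted p = 0.0395) although its groups overlapped. That call ended with no filter, median-ratio scaling or quantile normalization, and without Luc replicate 2 or either of Sfpq replicates 1 and 3 (log2 fold change 0.38 to 0.44).

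Among 9 tested genes listed as maternally expressed, 1 rose, 3 fell and 5 did not pass (44.4% called, against 40.0% of all genes). Which copy of them these cells used was not tested. The noncoding RNA Rian rose from 0.554, 0.689 and 1.08 RPKM to 1.67, 1.55 and 1.79 RPKM (log2 fold change 0.79, SE 0.16, limma adjusted p = 0.00433), but was listed at 0 in both rRNA-depleted libraries. Trappc9, a subunit of a vesicle trafficking complex, fell from 9.41 ± 1.75 to 1.73 ± 0.0143 RPKM (SD, n = 3; log2 fold change -2.14, limma adjusted p = 6.709e-06). Cd81, a tetraspanin, fell from 57.3 ± 9.74 to 13.5 ± 0.635 RPKM (SD, n = 3; log2 fold change -2.04, limma adjusted p = 7.231e-06). In rRNA-depleted RNA the log2 ratios of Trappc9 and Cd81 were -1.86 and -2.29. Ppp1r9a, neurabin, a scaffold of the synaptic cytoskeleton, had a log2 fold change of -0.97 (limma adjusted p = 0.00055).

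All 5 tested genes whose expressed copy depends on the isoform or tissue were called, 2 higher and 3 lower, where 40.0% of all tested genes were called. Commd1, a copper and protein trafficking factor, fell from 144 ± 7.53 to 48.5 ± 6.51 RPKM (SD, n = 3; log2 fold change -1.56, limma adjusted p = 1.334e-05). The Gnas row with the highest mean, NR_003258, is a noncoding transcript of a G protein locus with several overlapping transcripts. It fell by 0.39 on the log2 scale (limma adjusted p = 0.0138). That call ended with quantile normalization (-0.31) and without Sfpq replicate 2 or 3 (both -0.39). H13, a signal peptide peptidase that was named after its value was seen, had a log2 fold change of -0.34 (limma adjusted p = 0.0411). Blcap, the gene that surrounds Nnat, rose from 29.9, 33.5 and 33.5 RPKM to 45.9, 45.2 and 41.5 RPKM (log2 fold change 0.45, limma adjusted p = 0.00656). Copg2, a coatomer subunit, rose by 0.37 (limma adjusted p = 0.0492). The calls of Copg2 and H13 ended in 5 of 6 fits with a library left out, with log2 fold changes of 0.26 to 0.39 and -0.37 to -0.26.

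**Figure D4:**
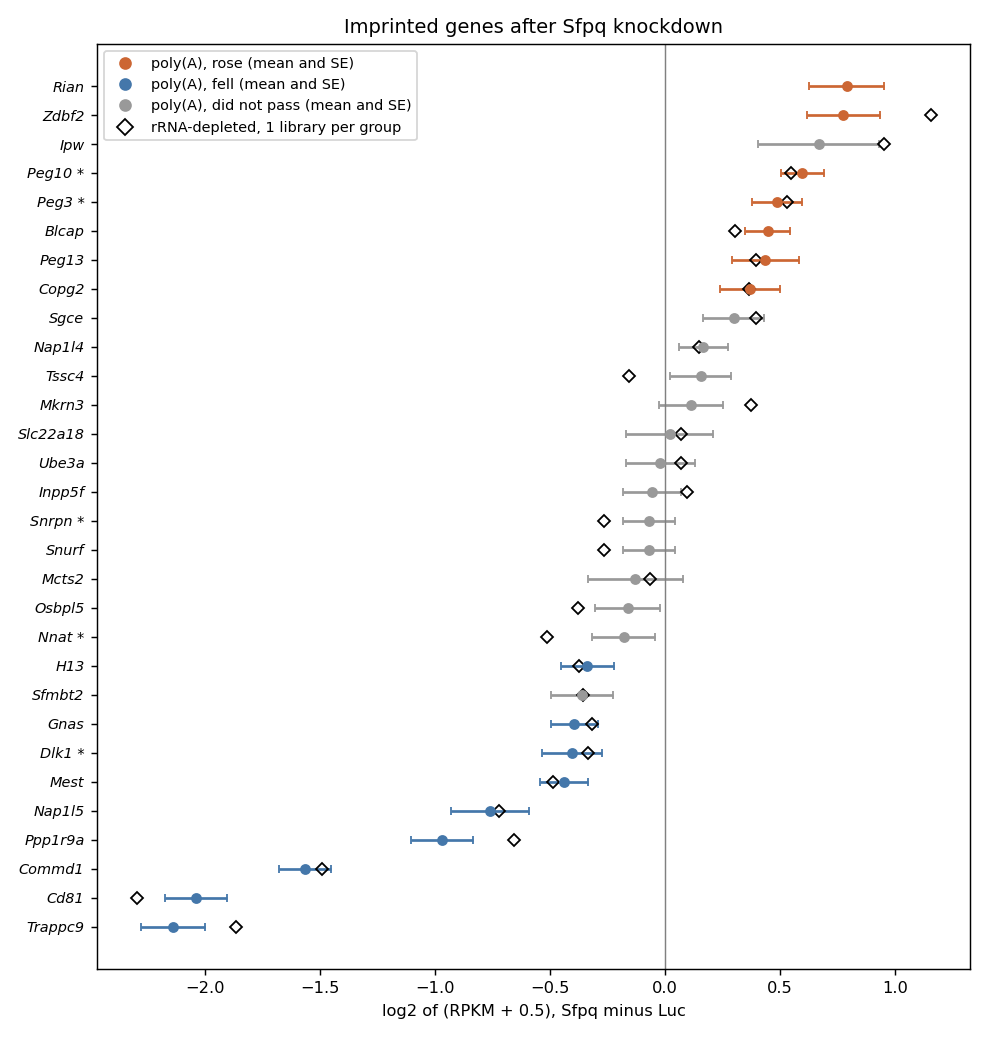
Change from Luc to Sfpq cells in log2 of (RPKM + 0.5) (x axis) for the 30 tested imprinted genes (y axis, asterisks mark the genes of the 10 named first); circles with SE are poly(A) RNA, coloured where the limma adjusted p was under 0.05, and diamonds are the rRNA-depleted pair. Changes run from -2.14 for Trappc9 to 0.79 for Rian, and the called genes among those first named lie at -0.40 (Dlk1), 0.49 (Peg3) and 0.60 (Peg10).

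Genes that share an imprinted domain did not all change in 1 direction. In the domain of Peg10, its neighbour Sgce, which shares a promoter region with it, had 45.3 RPKM in Luc and 55.2 RPKM in Sfpq cells and did not pass (log2 fold change 0.30, limma adjusted p = 0.101), while Ppp1r9a fell and Asb4 and Calcr were under the filter. In the Peg3 domain, Usp29 stood at 0.218 to 0.323 RPKM in Luc and 0.126 to 0.261 RPKM in Sfpq libraries and Zim1 at 0.0278 to 0.0932 RPKM, both under the filter. In the Dlk1 domain, Dlk1 fell and Rian rose, whereas Rtl1 (0.125 to 0.249 RPKM), Mirg (0 to 0.286 RPKM) and Dio3 (listed at 0) were under the filter. The domain's 58 miRNA genes with a row were listed at 0 in all poly(A) libraries, and 2 of them were above 0 in rRNA-depleted RNA.

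In the Snrpn domain, the noncoding RNA Ipw had 1.97, 1.83 and 3.18 RPKM in Luc and 2.42, 4.49 and 5.33 RPKM in Sfpq libraries (log2 fold change 0.67, limma adjusted p = 0.0691). The ubiquitin ligase Ube3a (-0.02) and the ring finger gene Mkrn3 (0.11) also did not pass, and Magel2, at 0.107 to 0.177 RPKM, was under the filter. In the Igf2 domain, Ins2 was listed at 0 in all 8 libraries.

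The nearest tested genes on the chromosome, 2 on each side of each of the 10 genes, gave 25 neighbours outside the imprinted lists. Of these, 2 rose, 4 fell and 19 did not pass (24.0% called, against 40.0% of all tested genes), with a median log2 fold change of -0.03. Beside Nnat, the kinase Src rose by 0.87 (limma adjusted p = 0.00131). Beside Dlk1, Wdr25 fell from 2.89 to 0.464 RPKM (log2 fold change -1.84, limma adjusted p = 8.659e-05). Beside Peg3, the zinc finger gene Zfp28 had a log2 fold change of -0.45, opposite in sign to Peg3, and lost its call without Luc replicate 1 or any 1 Sfpq library (-0.48 to -0.39). B230209E15Rik near Snrpn fell (-0.98). Tnnt3 near Igf2 was at 0.174 RPKM in Luc and 0.977 RPKM in Sfpq cells (log2 fold change 1.13, called higher). A330076H08Rik near Ndn was at 1.02 and 0.460 RPKM (-0.62, called lower), and among the fits with a library left out it was called only without Luc replicate 2. These 2 genes and Wdr25, 3 of the 6 called neighbours, had a mean under 0.5 RPKM in 1 group and so passed the filter only through the group where they were higher.

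**Figure D5:**
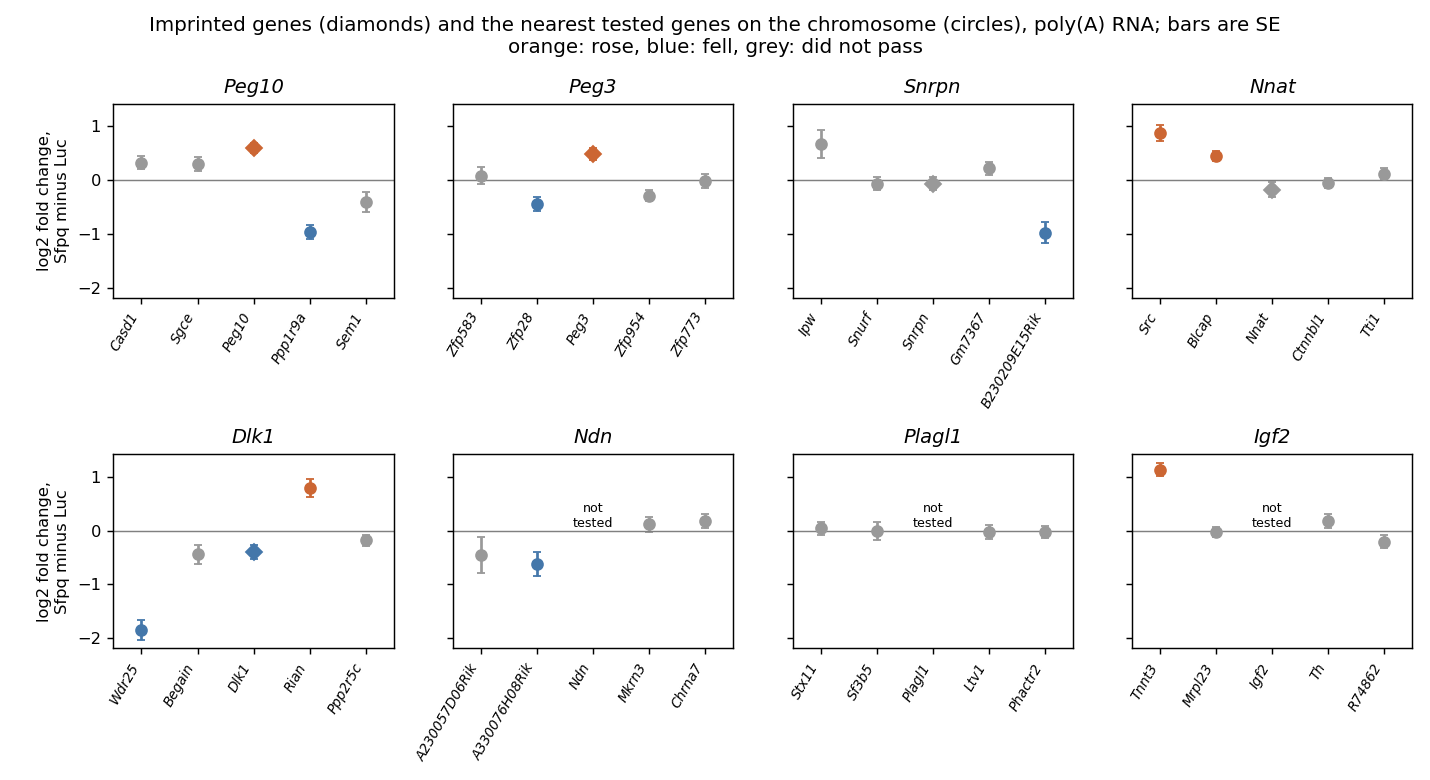
Log2 fold change from Luc to Sfpq in poly(A) RNA (y axis) with SE for the 5 tested genes (diamonds) and, in 8 panels, the nearest 2 tested genes on each side of a gene along the chromosome (circles), with Ndn, Plagl1 and Igf2 marked as not tested; orange rose, blue fell and grey did not pass. Neighbours of 1 gene lie on both sides of 0: beside Peg10 at 0.60, Sgce is at 0.30 and Ppp1r9a at -0.97.

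Genes that work with these were examined by role. Dlk1 is a noncanonical partner of Notch receptors. Of 9 tested Notch ligands, receptors and targets, 3 rose, 0 fell and 6 did not pass. That is 33.3% called, all higher, where 40.0% of all genes were called and 21.3% were higher. The median log2 fold change of the 9 was 0.11, and 11 of 19 matched genes were below 1 RPKM in Luc RNA. The coactivator Maml1 rose by 0.92 (limma adjusted p = 0.000288), the target Hey1 by 0.80 (adjusted p = 0.00412) and the receptor Notch2 by 0.40 (adjusted p = 0.0248), which lost its call without Sfpq replicate 2 or 3 (0.37 and 0.38). With no low-value filter, 5 of the list were called higher, and without Luc replicate 3, 2 were called lower. Over all genes, those fits called 4760 of 17014 and 6258 of 11727 in either direction. At an unadjusted limma p under 0.05, 4 of the list were higher and 0 lower in the main fit. No share of all genes was computed at that limit, so these 2 counts have no background.

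Igf2 acts through the insulin-like growth factor receptor. Of 14 tested genes of that axis, 2 rose, 7 fell and 5 did not pass (64.3% called, against 40.0% of all genes, where 18.6% of all genes were called lower). The median log2 fold change was -0.42, against 0.05 over all genes. The docking protein Irs2 fell from 32.2, 34.5 and 23.5 RPKM to 13.4, 14.6 and 15.1 RPKM (log2 fold change -1.02, limma adjusted p = 0.000651). The binding proteins Igfbp4 (-0.92) and Igfbp5 (-0.85) and the receptor Igf1r (-0.73) fell too. Foxo3 (0.49) and Insr (0.36), named after their values were seen, rose, and neither was called without Luc replicate 1 or either of Sfpq replicates 2 and 3, so that the count of higher genes was then 0. Over all 11727 tested genes, those fits called 3505, 3226 and 3313 in either direction. The ligand genes Igf1 and Igf2 themselves were at or near 0.

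SmN, the Snrpn product, replaces SmB, the product of Snrpb, in small ribonucleoproteins. Snrpb had 126, 138 and 99.8 RPKM in Luc and 149, 155 and 146 RPKM in Sfpq libraries and did not pass (log2 fold change 0.32, limma adjusted p = 0.0712). Of 13 Sm core and partner genes, all tested, 2 rose, 0 fell and 11 did not pass by limma (15.4% called, against 40.0% of all genes). At an unadjusted limma p under 0.05, 4 were higher and 0 lower, but no share of all genes was computed at that limit. Gemin2, which helps load Sm proteins onto RNA, rose by 0.55 (limma adjusted p = 0.0022) and Snrpg by 0.44 (adjusted p = 0.0377), the latter not called without replicate 1 or 2 of Luc or replicate 2 or 3 of Sfpq. The count of higher genes was 4 with quantile normalization, 1 with median-ratio scaling, 5 without Luc replicate 3 and 1 without Luc replicate 1 or either of Sfpq replicates 2 and 3. Over all 11727 tested genes, these fits called, in the same order, 4884, 4780, 6258, 3505, 3226 and 3313 in either direction.

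Ndn was at or near 0, but other MAGE genes were abundant. Of 13 tested MAGE family and necdin partner genes, 4 rose, 1 fell and 8 did not pass (38.5% called, against 40.0% of all genes). Maged1, a relative of necdin that binds the same neurotrophin receptor, stood at 182, 179 and 147 RPKM in Luc and 248, 233 and 229 RPKM in Sfpq libraries (log2 fold change 0.49, limma adjusted p = 0.00703). Bbs4 (0.76), Magee1 (0.54) and E2f1 (0.39, named after its value was seen) also rose, and E2f1 lost its call without any 1 Sfpq library. That receptor, Ngfr, fell by 0.52 (limma adjusted p = 0.00564). With median-ratio scaling 4 of the list were called lower in place of 1, and with quantile normalization 3. Over all 11727 tested genes these settings called 4780 and 4884 in either direction, against 4687 in the main fit.

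The methylation at imprinted control regions is kept by the DNA methyltransferase Dnmt1 with Uhrf1, and by Zfp57 with Trim28. Of 27 tested genes for keeping and reading imprints, 5 rose, 1 fell and 21 did not pass (22.2% called, 18.5% higher and 3.7% lower). Over all tested genes 40.0% were called, 21.3% higher and 18.6% lower. The median log2 fold change of the 27 was 0.22. Dnmt1 had 31.4, 33.5 and 26.8 RPKM in Luc and 39.9, 45.5 and 42.5 RPKM in Sfpq libraries (log2 fold change 0.48, limma adjusted p = 0.00862). The de novo methyltransferases went in opposite directions, with Dnmt3b higher (0.53, limma adjusted p = 0.0151) and Dnmt3a lower (-0.53, adjusted p = 0.00601). Jarid2, a Polycomb cofactor (0.47), and Uhrf1 (0.40) and Ehmt2 (0.38), both named after their values were seen, were also higher. Zfp57, at 7.03, 7.13 and 8.001 RPKM in Luc and 7.87 to 8.97 RPKM in Sfpq libraries, did not pass (log2 fold change 0.17), nor did Trim28 (0.19). The number called higher by limma varied with the library left out. It was 0 without Sfpq replicate 2, where 4 were higher at an unadjusted limma p under 0.05. For that limit no share of all genes was computed. It was 3 without replicate 1 of either group or Sfpq replicate 3, in fits that called 3313 to 3866 of 11727 genes. Without Luc replicate 3 it was 14, in a fit that called 6258 genes in either direction. Without Sfpq replicate 2 the log2 fold changes of the 5 genes were still 0.33 (Ehmt2) to 0.53 (Dnmt3b), with limma adjusted p from 0.05025 to 0.165, in a fit that called 3226 genes in all in place of 4687. With quantile normalization 9 of the list were called higher and 2 lower, and with median-ratio scaling 2 were called lower. Over all 11727 tested genes these settings called 4884 and 4780 in either direction.

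The genes whose log2 pattern over the 8 libraries was most like those of the 3 most abundant genes are given as a description. The points share their libraries and preparations. For Peg10 they were Gcc1 (Pearson r = 0.992), Zfp687 (0.991) and Csnk1g1 (0.986). For Peg3 they were Tanc2 (0.990), Rdh10 (0.989) and Cplane1 (0.984). Snrpn was matched by Snurf (1.0), its own transcript, then by Wasf3 (0.996) and Ostf1 (0.994).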

How the data were processed

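Poly(A) (3 Luc, 3 Sfpq) and rRNA-depleted (1 of each) RNA of Neuro-2a cells was sequenced, and the titles of the samples gave each library its group and number. The description of Sfpq replicate 2 numbers it 1, so its number, which names it in the text and enters the replicate block, is uncertain. Each deposited file lists RPKM by RefSeq transcript, per the file headers. Alignment was to mm9 with TopHat2 2.0.10, per the submitters' processing notes; for the RPKM program, its annotation and its handling of reads with several matches, the setting is not given in the sources used here. Since RPKM holds no read counts, no count test or counting interval was used, and precision comes from the replicates.

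Rows were named by RefSeq identifier from a GRCm38.p6 gene table (98.5% of 30978 rows), which also gave the order of genes along chromosomes. The highest row stood for a gene. The 6 poly(A) libraries entered limma 3.58.1 (trended, R 4.3.3) on log2(RPKM + 0.5), for means of at least 0.5 RPKM, with Benjamini-Hochberg adjustment over 11727 genes. Fold changes are on that scale, which understates changes of low genes. Single libraries were described by log2 ratios. Likeness is the Pearson r of log2(RPKM + 0.5), over genes averaging 1 RPKM or more. On simulated data with 200 of 11727 genes changed, limma recovered 17.5% of log2 changes of 0.5, 65.0% of 1 and 90.0% of 2. It called 0.0347% of unchanged genes. The adjusted p depends on how many genes change, and 40.0% were called in the data. The recovered shares therefore need not hold for the data.

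The 10 genes and the lists were chosen with earlier results of these data known. Named are the 10 genes, members of their imprinted domains, the 4 largest called changes in a list (where none was called, the 2 genes with most RNA), the nearest 2 tested genes on each side and the 3 most alike genes; others were named after their values were seen. Alternatives were other pseudocounts (0.1 and 1), filters, scalings, no trend, a replicate block, the mean of a gene's rows and leaving out each library.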

Additional observations from a re-analysis of the deposited data

How the results depend on the processing

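Peg10 and Peg3 kept their direction and call in 6 of 6 fits with a library left out (log2 fold change 0.57 to 0.64 and 0.44 to 0.57) and in 8 of 8 other settings besides the block. Of those settings, the filters and the fit without trend could change only the call. The number of called genes among the 5 ran from 2 to 4 with a library left out, and over all genes from 3226 to 6258. Dlk1 ranged from -0.48 to -0.31, and its call ended in 5 of 6 such fits and with no low-value filter (-0.40, limma adjusted p = 0.0663), where 17014 genes were tested. Nnat ranged from -0.30 (without Luc replicate 3, now called) to -0.059, and Snrpn from -0.135 to 0.0214 (without Sfpq replicate 1, the reverse direction). With a library left out, other imprinted genes called higher ran from 3 to 8 and lower from 5 to 8, and under the other settings from 4 to 6 and 7 to 9. Scaling to a median ratio reversed the difference of Nnat between preparations to 0.31. Same-numbered Luc and Sfpq libraries correlated in their deviations at 0.33, -0.04 and 0.16. Sfpq replicates 1 and 3 correlated best with the Luc library of their own number. Sfpq replicate 2, whose number is uncertain, correlated best with Luc replicate 3 (0.17). These values do not settle whether the numbers pair the libraries. With the replicate block, log2 fold changes cannot move, as each number occurs once in each group. They were -0.18 for Nnat, -0.07 for Snrpn, 0.49 for Peg3, -0.40 for Dlk1 and 0.60 for Peg10. In that fit, which called 4990 genes in all, 3 of the 5 genes were called. Of the other imprinted genes 6 were higher and 9 lower. The block changed no call of the 5. The cause of these shifts was not tested. Depth limits Meg3, Ndn, Igf2 and Plagl1, whose values are a few steps.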

Other observations

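Several imprinted genes lie inside the span of another gene in the RefSeq table, and these pairs were picked out after their values were seen. Nnat (log2 fold change -0.18, not called) lies within Blcap, which rose by 0.45. The noncoding RNA Peg13 (0.44) lies within Trappc9, which fell by 2.14, so nested gene and host were called in opposite directions. Nap1l5 fell by 0.76 while its host Herc3, an enzyme of the ubiquitin system, did not pass (log2 fold change 0.12, limma adjusted p = 0.504). The retrogene Mcts2 did not pass (-0.13, limma adjusted p = 0.647), and its host H13 fell by 0.34. Zrsr1 was listed at 0 in all 6 poly(A) libraries, while its host Commd1 fell by 1.56. Whether the counting separated reads of a nested gene from those of its host is not given in the sources used here.

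Kcnq1ot1, the long antisense RNA that silences an imprinted cluster, was at 0.0267 to 0.0502 RPKM in poly(A) Luc and 0.0474 to 0.0683 RPKM in poly(A) Sfpq libraries. Its levels in rRNA-depleted RNA were 0.296 RPKM in Luc and 0.607 RPKM in Sfpq cells. Of 4 tested long noncoding RNAs of the nucleus, 1 rose and 1 fell, where 40.0% of all tested genes were called. With 4 genes these counts are close to that background. The snoRNA host Snhg1 rose by 1.28 (limma adjusted p = 0.0039). The paraspeckle RNA Neat1 had a log2 fold change of -0.82 (limma adjusted p = 0.0196), although its poly(A) groups overlapped. The Neat1 call ended without Luc replicate 1 or Sfpq replicate 1 or 2 (-0.77 to -0.63) and with no low-value filter. In the rRNA-depleted pair the log2 ratios were 1.56 for Snhg1 and -0.14 for Neat1, with no replicate check. Malat1 and Pvt1 did not pass. Gene rows of the 7 snoRNA genes near Meg3 and Rian were listed at 0 in all poly(A) libraries, and 1 was above 0 in rRNA-depleted RNA, at up to 2.09 RPKM.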
